A study of Mus musculus with 12 samples.

Results

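The genes described here are 10 cytokine genes of T helper effector cells, Ifng, Il2, Tnf, Lta, Csf2, Il3, Il4, Il13, Il21 and Il10, picked by name and matched by symbol or Ensembl identifier among the 49585 genes of the count files. They were measured in 12 libraries from mouse CD4 T cells that lacked or kept Rnmt, the methyltransferase that adds the methyl group of the m7G mRNA cap. Control mice were Rnmt fl/fl without the CD4cre transgene, and Rnmt cKO (conditional knock-out) mice were Rnmt fl/fl with it. All mice were female, both genotypes carried the floxed allele, and Cre under the Cd4 promoter deletes in developing thymocytes, so CD8 T cells of these mice lose Rnmt too; ages were not given in the sources used here.

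Naive CD4 T cells were taken from lymph nodes with a magnetic kit, not by flow sorting. They were cultured for 20 h on plates coated with anti-CD3 (5 µg/ml) and anti-CD28 (1 µg/ml), which stand in for antigen and co-stimulation, and were given cycloheximide at 0.1 mg/ml for 1 min before lysis to hold ribosomes in place. Total cytoplasmic RNA and ribosome protected fragments (RPFs, the stretches of mRNA covered by a translating ribosome) were sequenced from 3 control and 3 Rnmt cKO cultures. Reads counted on genes numbered 18915961 to 19111659 per library in control total RNA, 15079703 to 22629563 in Rnmt cKO total RNA, 6786164 to 10661356 in control RPF and 4123271 to 10166729 in Rnmt cKO RPF. Levels are given as CPM, the counts of a gene scaled to 1000000 reads counted on genes in that library, so they are relative within a library and say nothing of the amount of RNA per cell. The authors report less mRNA per activated Rnmt cKO cell and state that rises in the sequencing data are thereby overestimated. In such bulk samples more cells that make a cytokine and more mRNA per cell cannot be told apart.

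T helper cells act on other cells largely through secreted cytokines. Interleukin 2 drives T cell growth, interferon gamma activates macrophages and marks the type 1 helper program, interleukins 4 and 13 mark the type 2 program that serves B cells and barrier immunity, interleukin 21 helps germinal centres, and interleukin 10 restrains inflammation. Transcription of these genes after antigen recognition depends on calcium-driven NFAT together with AP-1 and NF-kB, and most of the mRNAs carry AU-rich elements through which they are destroyed quickly.

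Rnmt itself was measured first as a check of the labels. Its level in total RNA was 94.5, 94.0 and 91.5 CPM in the control libraries and 28.7, 33.4 and 31.1 CPM in the Rnmt cKO libraries. In RPF it was 104, 85.9 and 98.2 CPM in control and 10.8, 10.4 and 9.46 CPM in Rnmt cKO. Each library thus sat with its labelled genotype, and Rnmt fell by 1.62 on the log2 scale in total RNA and by 3.24 in RPF. Only a single exon is floxed and the counts cover the whole gene, so reads remain in the knock-out.

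The CPM of the cytokine genes as a group was higher in Rnmt cKO T cells. The CPM of the 10 genes summed to 72.5 ± 6.32 (SD, n = 3) in control total RNA and to 156 ± 10.4 in Rnmt cKO, and to 73.8 ± 4.21 in control RPF and 187 ± 16.2 in Rnmt cKO. Without Tnf, the most abundant of them in total RNA and in control RPF, the sum was 17.2 ± 2.73 CPM in control and 74.3 ± 12.3 in Rnmt cKO total RNA, and 31.6 ± 1.25 against 138 ± 15.6 CPM in RPF. In all 4 sums the lowest Rnmt cKO library lay above the highest control library.

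In total RNA the CPM of every Rnmt cKO library exceeded that of every control library for 8 of the 10 genes, with Il21 and Il10 as the exceptions. The same held for 26.5% of the 17364 genes with at least 10 counts over the 6 total RNA libraries. In RPF it held for 6 of the 10 genes, the exceptions being Tnf, Il4, Il21 and Il10, against 20.4% of 15146 genes. An exact two-sided permutation test of 3 against 3 libraries cannot give a p below 0.1, which is the value of each of these separated genes, so the tests below come from the fit across all genes.

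A filter of more than 1 CPM in at least 3 libraries of a kind was passed by 5 of the 10 genes in total RNA (Tnf, Il2, Lta, Ifng and Csf2) and by 4 in RPF (Tnf, Il2, Lta and Ifng). Csf2 passed only through the Rnmt cKO libraries, so that it had to differ between the genotypes, and it is left out of the counts and medians here. The other 4 all increased in total RNA, where 26.3% of 11519 tested genes did, and 3 of them increased in RPF, where 14.1% of 11428 did. The fitted log2 fold changes of these 4 genes had a median of 1.71 in total RNA and 1.73 in RPF, while the medians over all tested genes were -0.004 and 0.008.

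Ifng encodes interferon gamma (Ensembl ENSMUSG00000055170; GRCm38, chromosome 10, 118441046 to 118445892, plus strand). Its total RNA level was 1.89, 1.43 and 2.98 CPM in control libraries and 18.4, 24.5 and 18.4 CPM in Rnmt cKO libraries. In RPF the level was 3.0, 2.21 and 2.31 CPM in control and 42.3, 39.6 and 29.4 CPM in Rnmt cKO. The lowest Rnmt cKO library was thus several times the highest control library in both kinds, on 120 counts in all control total RNA libraries together and 66 in control RPF. The log2 fold change was 3.24 (standard error 0.24, adjusted p = 3.6e-05) in total RNA and 3.84 (standard error 0.19, adjusted p = 2.7e-05) in RPF, which are 9.45-fold and 14.3-fold. Among the 4 genes tested in both kinds these were the largest changes.

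Il2 encodes interleukin 2, the growth factor that activated T cells make for themselves and for neighbouring cells (ENSMUSG00000027720; chromosome 3, 37120523 to 37125959, minus strand). Control total RNA held 10.1, 5.97 and 7.74 CPM and Rnmt cKO total RNA 19.3, 26.8 and 22.2 CPM. Control RPF held 9.29, 7.37 and 9.13 CPM, against 27.1, 37.8 and 28.6 CPM in Rnmt cKO. The genotypes did not overlap in either kind, and control replicate 1 was the control library nearest to them in total RNA. Il2 increased in total RNA (log2 fold change 1.48, standard error 0.19, adjusted p = 0.00041) and in RPF (1.83, standard error 0.17, adjusted p = 0.00022).

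Tnf and Lta, for tumour necrosis factor and lymphotoxin alpha, are neighbouring genes of 1 family whose products both bind the TNF receptors. On chromosome 17 they lie on the minus strand with 1158 bases between them (Tnf, ENSMUSG00000024401, 35199381 to 35202007; Lta, ENSMUSG00000024402, 35203165 to 35205351). They did not change to the same extent.

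Lta stood at 6.24, 5.87 and 6.91 CPM in control total RNA and at 22.2, 26.0 and 26.4 CPM in Rnmt cKO. In RPF the control libraries had 17.5, 21.5 and 20.1 CPM and the Rnmt cKO libraries 59.3, 60.0 and 64.5 CPM. Replicates lay closer together than for Ifng and Il2, and the groups were far apart. The log2 fold change of Lta was 1.93 (standard error 0.11, adjusted p = 1.3e-05) in total RNA and 1.62 (standard error 0.11, adjusted p = 7.5e-05) in RPF.

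Tnf was the most abundant of the 10 genes by CPM in total RNA, at 59.3, 51.5 and 55.0 CPM in control and 79.4, 73.7 and 91.7 CPM in Rnmt cKO. Its RPF values were 40.3, 40.2 and 45.9 CPM in control and 45.2, 50.0 and 50.7 CPM in Rnmt cKO. The genotypes were separate in total RNA, but in RPF the lowest Rnmt cKO library was below the highest control library. The total RNA of Tnf increased by 0.53 on the log2 scale (standard error 0.10, adjusted p = 0.0024). In RPF its log2 fold change was 0.18 (standard error 0.10, adjusted p = 0.19), which did not pass the threshold, and its 95% interval of -0.04 to 0.40 held both no change and a rise.

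Because Tnf moved least, the make-up of the cytokine reads shifted. Tnf held 76.4% ± 2.09 (SD, n = 3) of the summed CPM of the 10 genes in control total RNA and 52.5% ± 6.02 in Rnmt cKO. In RPF its share was 57.1% ± 1.37 in control and 26.1% ± 2.44 in Rnmt cKO, where Lta held more, 33.0% ± 3.78. Ifng went from 2.88% ± 1.01 to 13.1% ± 1.91 in total RNA and from 3.42% ± 0.72 to 19.9% ± 3.44 in RPF.

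**Figure D1:**
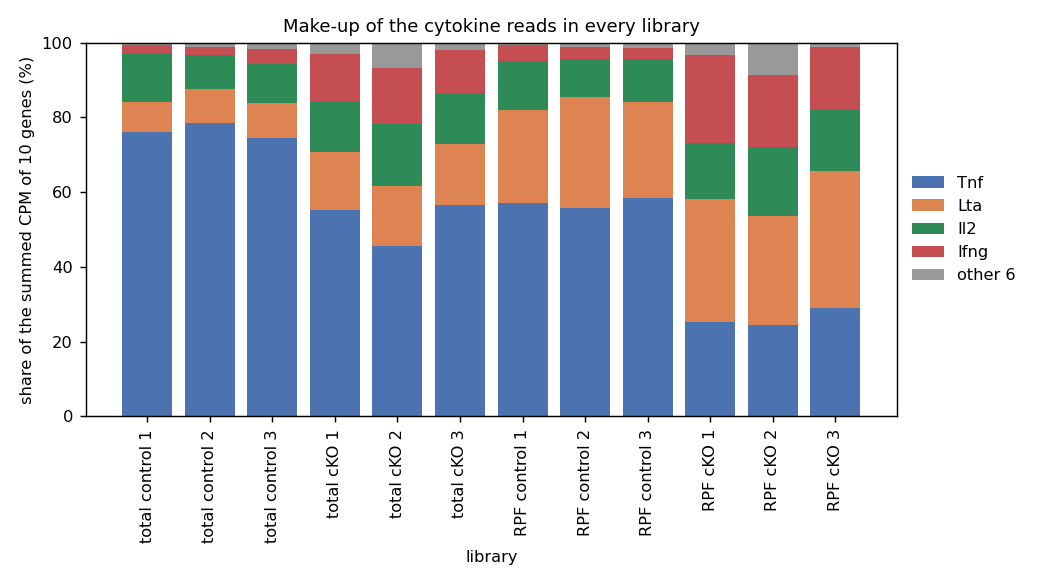
Share of each gene in the summed CPM of the 10 cytokine genes (percent, stacked to 100) in every library, with the 6 least abundant genes joined in grey. Tnf holds 74.4 to 78.6% in control total RNA and 24.4 to 28.9% in Rnmt cKO RPF.

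Levels of different genes were compared per length, as CPM per kilobase of exon in total RNA and per kilobase of coding sequence in RPF. In control total RNA the order was Tnf at 33.7 ± 2.38 CPM per kilobase (SD, n = 3), Il2 at 6.93 ± 1.80, Lta at 4.58 ± 0.38 and Ifng at 1.62 ± 0.62, and their ranges over the 3 libraries did not overlap. The other 6 genes lay at 0.28 CPM per kilobase or below. In Rnmt cKO total RNA the order of the leading genes was the same, with 49.8 ± 5.62 for Tnf, 19.9 ± 3.31 for Il2, 18.0 ± 1.71 for Lta and 15.8 ± 2.71 for Ifng, but the ranges of Il2, Lta and Ifng overlapped.

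In control RPF the order was Tnf (59.8 ± 4.60 CPM per kilobase of coding sequence), Lta (32.5 ± 3.41), Il2 (17.0 ± 2.10) and Ifng (5.39 ± 0.93), again without overlap of the ranges. In Rnmt cKO RPF Lta came first at 101 ± 4.68, above Ifng at 79.8 ± 14.7, Tnf at 68.9 ± 4.27 and Il2 at 61.4 ± 11.4, and the ranges of these last genes overlapped. Among 21734 protein-coding genes, Ifng ranked 8217 by this measure in control RPF and 2316 in Rnmt cKO RPF.

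Translation efficiency (TE) was taken as the ratio of RPF to total RNA, and its change between genotypes was tested as an interaction term. For Lta the RPF CPM divided by the total RNA CPM of the same replicate number was 2.79, 3.67 and 2.91 in control and 2.68, 2.31 and 2.44 in Rnmt cKO. The ratio for Tnf was 0.68, 0.78 and 0.83 in control and 0.57, 0.68 and 0.55 in Rnmt cKO. Lta therefore had more footprints per total RNA than 93.2% of the 10668 genes tested in control and Tnf more than 27.4%, where the median ratio over genes was 1.15 in either genotype. These ratios were not divided by length, so such ranks between genes also depend on the coding part of each transcript.

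For Il2 the ratio was 0.92, 1.23 and 1.18 in control and 1.40, 1.41 and 1.29 in Rnmt cKO. Ifng had ratios of 1.59, 1.55 and 0.78 in control, on 15 to 32 RPF counts per library, and of 2.29, 1.62 and 1.59 in Rnmt cKO. The genotypes did not overlap for any of the 4 genes, with Lta and Tnf lower and Il2 and Ifng higher in Rnmt cKO, but for Tnf and Ifng the nearest values agreed to 2 digits. Such separation was seen upwards in 13.9% and downwards in 15.4% of the 10668 genes.

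None of the 4 TE changes passed the threshold in the edgeR interaction test, in which 3.24% of 10668 genes rose and 6.57% fell. The log2 change in TE was 0.61 (95% interval -0.15 to 1.37, adjusted p = 0.31) for Ifng and 0.35 (-0.24 to 0.95, adjusted p = 0.47) for Il2. It was -0.32 (-0.65 to 0.02, adjusted p = 0.22) for Lta and -0.35 (-0.65 to -0.04, adjusted p = 0.14) for Tnf. At an unadjusted p under 0.05, 1 of the 4 passed (Tnf, with an edgeR p of 0.028 over 12 libraries), as did 24.6% of all genes tested, and DESeq2 called none either. These intervals held changes of TE in either direction for Ifng, Il2 and Lta, so equal translation was not shown. With 1 culture left out at a time, the TE change of Ifng fell to 0.19 without control replicate 3, that of Il2 to 0.19 without control replicate 1, and that of Lta was -0.18 without control replicate 2.

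**Figure D2:**
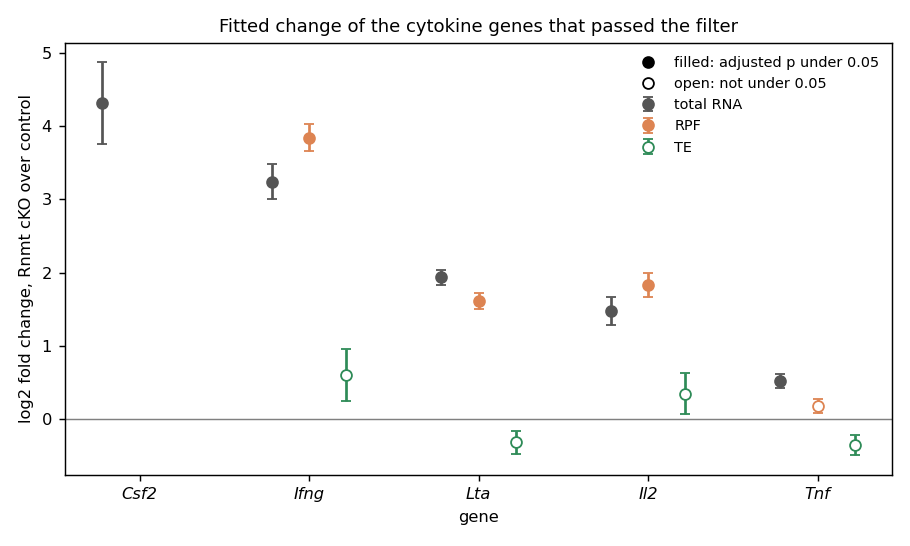
Fitted log2 fold change of Rnmt cKO over control with its standard error for the genes that passed the filter, in total RNA (grey), RPF (orange) and TE (green); filled points have an adjusted p under 0.05. All total RNA changes and the RPF changes of Ifng, Lta and Il2 are filled, while the RPF change of Tnf and all 4 TE changes are open. The value of Csf2 is a description, since it passed the filter through the Rnmt cKO libraries alone.

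The promoters of the 4 abundant genes, which increased in total RNA by 0.53 to 3.24 on the log2 scale, are shown as a description. No link between these sequences and the changes was tested. The sequences are the 250 bases before the start given by RefSeq (GRCm38.p6), 5′ to 3′ on the strand of the gene, for Ifng chr10:118440796-118441045 (plus), Il2 chr3:37125955-37126204 (minus), Lta chr17:35205352-35205601 (minus) and Tnf chr17:35202008-35202257 (minus). Capitals mark GGAAA on either strand (seen as GGAAA or TTTCC), the core of NFAT sites, and TATAAA on the strand of the gene.
Ifng: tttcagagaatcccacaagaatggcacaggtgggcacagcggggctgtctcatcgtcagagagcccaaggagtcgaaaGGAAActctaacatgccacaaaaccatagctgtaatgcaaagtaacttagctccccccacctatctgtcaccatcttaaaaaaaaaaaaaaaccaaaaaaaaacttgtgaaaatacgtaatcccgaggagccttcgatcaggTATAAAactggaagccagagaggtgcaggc
Il2: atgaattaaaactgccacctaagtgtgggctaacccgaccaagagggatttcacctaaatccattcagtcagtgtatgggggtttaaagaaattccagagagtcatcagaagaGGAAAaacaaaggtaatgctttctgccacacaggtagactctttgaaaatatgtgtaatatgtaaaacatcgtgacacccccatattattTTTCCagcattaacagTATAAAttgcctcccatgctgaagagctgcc
Lta: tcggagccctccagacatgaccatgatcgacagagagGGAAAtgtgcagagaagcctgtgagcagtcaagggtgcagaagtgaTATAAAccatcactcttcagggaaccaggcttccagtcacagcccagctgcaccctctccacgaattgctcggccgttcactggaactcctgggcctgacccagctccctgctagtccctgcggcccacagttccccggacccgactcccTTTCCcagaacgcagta
Tnf: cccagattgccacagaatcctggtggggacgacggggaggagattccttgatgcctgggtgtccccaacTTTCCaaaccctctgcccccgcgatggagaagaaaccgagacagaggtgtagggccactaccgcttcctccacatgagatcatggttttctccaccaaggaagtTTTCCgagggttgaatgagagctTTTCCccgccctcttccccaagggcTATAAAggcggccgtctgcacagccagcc

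GGAAA was found once before Ifng, 2 times before Il2 and Lta and 3 times before Tnf. A promoter sequence was given for 9 of the 10 genes, Il10 being the missing entry, and Il4 had a pair of starts. At least 1 GGAAA lay in 9 of these 10 windows and at least 2 in 7, compared with 55.6% and 21.4% of 32851 promoter windows of the same length. TATAAA lay in 5 windows, including those of the 4 genes shown, and in 7.59% of all. It was counted anywhere in a window, and before Lta it lay nearer the far end than the start. No window of the 10 held TGANTCA, the AP-1 consensus, on either strand, and 6.75% of all windows held it. These are matches of letters and were not tested as binding sites.

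The other 6 genes, Csf2, Il3, Il4, Il13, Il21 and Il10, had between 2 and 21 counts over the 3 control total RNA libraries together. Their values are therefore given as counts. For Csf2, Il3 and Il10 ratios are added, with exact 95% intervals that cover counting error only and not the spread between cultures.

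Csf2 and Il3, for GM-CSF and interleukin 3, are growth factors of myeloid cells that activated T cells secrete, and they lie 15636 bases apart on chromosome 11 (Csf2, ENSMUSG00000018916, 54247271 to 54249667; Il3, ENSMUSG00000018914, 54265303 to 54267277). Csf2 had 2, 2 and 3 counts in control total RNA and 28, 81 and 39 in Rnmt cKO, a ratio of pooled CPM of 21.4 (95% interval 10.1 to 54.1). In RPF there were 0, 0 and 1 counts against 14, 38 and 2 (ratio 61.2, 95% interval 10.5 to 2462). The groups were separate in both kinds, though in RPF Rnmt cKO replicate 3, the shallowest library, was near the controls. Its fitted log2 fold change in total RNA was 4.31 (standard error 0.56, adjusted p = 0.00044), which is a description, since Csf2 passed the filter through the Rnmt cKO libraries alone. When any Rnmt cKO library was left out it no longer passed and was not tested.

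Il3 had 1, 0 and 1 counts in control total RNA and 8, 31 and 7 in Rnmt cKO (ratio 23.2, 95% interval 6.08 to 198). Its RPF counts were 1, 0 and 0 in control and 16, 58 and 4 in Rnmt cKO (ratio 88.4, 95% interval 15.4 to 3536). Every Rnmt cKO library was above every control in both kinds, and replicate 2 was the highest each time. Without that library the total RNA ratio of Il3 was 11.3 (95% interval 2.64 to 102) and its RPF ratio 41.1 (95% interval 6.58 to 1706). For Csf2 they were then 14.5 (95% interval 6.66 to 37.4) and 32.9 (95% interval 5.11 to 1380).

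Il4 and Il13 are the type 2 cytokine genes, 12655 bases apart on chromosome 11 (Il4, ENSMUSG00000000869, 53602982 to 53618669; Il13, ENSMUSG00000020383, 53631324 to 53634702). Il13 had 1, 2 and 5 counts in control total RNA and 5, 28 and 8 in Rnmt cKO, and in RPF 1, 0 and 1 against 6, 46 and 2. Il4 had 1, 0 and 2 counts against 6, 11 and 3 in total RNA, and 1, 0 and 3 against 3, 22 and 0 in RPF. Rnmt cKO replicate 2 held most of the Rnmt cKO counts of Il13 in both kinds and most of those of Il4, and the other Rnmt cKO libraries were close to the controls or overlapped them.

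Il21 (ENSMUSG00000027718; chromosome 3, 37222759 to 37232636, with 96800 bases between it and Il2) had 1, 0 and 6 counts in control total RNA and 6, 40 and 5 in Rnmt cKO. Its RPF counts were 1, 0 and 0 against 3, 7 and 0. Here the genotypes overlapped in both kinds, and the single high library was again Rnmt cKO replicate 2.

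Il10 (ENSMUSG00000016529; chromosome 1, 131019845 to 131024974) had the smallest ratio of pooled CPM of these 6 genes. It had 2, 11 and 8 counts in control total RNA and 15, 11 and 12 in Rnmt cKO (ratio 1.83, 95% interval 1.05 to 3.28), and 1, 6 and 4 against 6, 10 and 1 in RPF (ratio 1.75, 95% interval 0.77 to 4.14). Rnmt cKO replicate 2 was not the highest for Il10 in total RNA, and a change of Il10 was not detectable at this depth beyond the spread between libraries.

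Without a filter on low counts, where 12.1% of 29236 genes increased in total RNA, 9 of the 10 cytokine genes did so, all but Il10. Il21 was called there (edgeR adjusted p = 5.5e-07) although its genotypes overlapped. In RPF 6 of the 10 increased (Ifng, Il2, Lta, Csf2, Il3 and Il13), against 6.98% of 26748 genes. For cytokine genes called in both fits, the edgeR p-values were far smaller here than in the main fit. For Ifng in total RNA the adjusted p was 3.6e-05 in the main fit and 1.5e-84 here. Calls without a filter, also those below, are therefore not read as a measure of the spread between cultures. When Rnmt cKO replicate 2 was left out as well, an alternative chosen after the data were seen, Il3 and Csf2 still passed with smaller values. The log2 fold change of Il3 went from 4.27 to 3.29 (adjusted p = 0.0024) in total RNA and from 5.77 to 4.75 (adjusted p = 0.00082) in RPF, and that of Csf2 from 4.30 to 3.77 (adjusted p = 1.5e-15) and from 5.22 to 4.34 (adjusted p = 0.007). Il13, Il4 and Il21 then no longer passed in total RNA. The log2 fold change of Il13 went from 2.27 to 1.23 (adjusted p = 0.26), that of Il4 from 2.58 to 2.07 (adjusted p = 0.16) and that of Il21 from 2.77 to 1.21 (adjusted p = 0.35). Nor did Il13 pass in RPF, where it went from 4.43 to 2.73 (adjusted p = 0.28).

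Marker genes of the cells that could be present were set beside these results. CD4 T cell markers were abundant in all libraries, summing over 9 genes to 3888 to 4252 CPM in control and 3095 to 3697 CPM in Rnmt cKO total RNA. Of the 9, 6 decreased in total RNA, where 28.0% of all tested genes did, and 5 in RPF, where 15.7% did. Cd3g, a chain of the T cell receptor complex, had log2 fold changes of -1.23 and -0.94. Cd3d (-0.74) and Cd5 (-0.65) followed in total RNA, and Cd5 (-0.60) and Trac (-0.46) in RPF, while Cd4 itself had -0.16 (adjusted p = 0.10) in total RNA. The most abundant CD4 marker was Cd28 in total RNA (973 to 1196 CPM) and Cd3e in RPF (882 to 1173 CPM). The pair of CD8 T cell markers summed to 21.2 to 40.5 CPM in control and 10.1 to 25.8 CPM in Rnmt cKO total RNA, led by Cd8a, and neither passed the threshold in any comparison.

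B cell markers were higher in 2 of the 3 Rnmt cKO libraries than in any control library. The 5 genes summed to 9.45, 6.03 and 32.7 CPM in control and 84.4, 108 and 19.6 CPM in Rnmt cKO total RNA, and to 11.7, 8.40 and 40.9 against 131, 142 and 21.8 CPM in RPF. In both kinds Rnmt cKO replicate 3 lay below control replicate 3, so the genotypes overlapped. Cd79b and Ms4a1, the most abundant of them, were the 2 of 4 tested that increased in total RNA, where 26.3% of all tested genes did, and the same 2 of 5 increased in RPF, where 14.1% did. Their log2 fold changes were 1.92 and 2.18 in total RNA and 2.19 and 2.84 in RPF. Among the Rnmt cKO libraries the B cell sum was highest in replicate 2 and lowest in replicate 3 in both kinds. In total RNA this was also the order of Csf2, Il3, Il4, Il21 and, with replicates 1 and 3 both at 18.4 CPM, Ifng. It was not the order of Il2, Tnf, Lta, Il10 and Il13 there. In RPF it was the order of Csf2, Il3, Il4, Il13, Il21 and Il10, and not of Ifng, Il2, Tnf and Lta. Except for Ifng, the genes with this order all had low counts. The share of all genes with this order was not computed. The part of B cells in the cytokine levels was not tested.

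Of 7 NK cell markers 1 passed the filter in total RNA and 2 in RPF. Their CPM summed to 3.62, 3.49 and 4.45 in control and 6.04, 11.9 and 5.35 in Rnmt cKO total RNA, and to 3.0, 2.65 and 8.03 against 11.7, 22.8 and 7.76 in RPF, so the genotypes were separate in total RNA and overlapped in RPF. Among those not tested, the receptor gene Ncr1 had 2, 2 and 0 counts in control and 7, 12 and 9 in Rnmt cKO total RNA. Klrb1c had 0, 0 and 1 counts against 5, 9 and 6, and Klre1 had 3, 2 and 3 against 15, 6 and 10. Klra4 (2, 1 and 0 against 3, 8 and 1) and Klra8 (1, 1 and 1 against 0, 4 and 1) overlapped, whereas Gzma (5, 5 and 5 against 33, 141 and 14) did not. Thus 4 of the 6 markers not tested in total RNA were separate, against 26.5% of the genes with at least 10 counts. Klra8 had fewer than 10 counts and so lies outside that background. Gzma, a granule protease, was the most abundant in RPF only over both genotypes together. In control RPF the mean of Klrd1 was higher (4.19 against 0.04 CPM). Gzma had 0, 0 and 0.12 CPM in control RPF and 5.39, 18.1 and 1.46 CPM in Rnmt cKO RPF. It passed the filter there through the Rnmt cKO libraries alone, so its fitted log2 fold change of 7.30 (standard error 1.28) is a description. Klrd1, the most abundant NK marker in control total RNA, had a log2 fold change of -0.36 there against Rnmt cKO (adjusted p = 0.26). In Rnmt cKO total RNA the mean of Gzma was higher than that of Klrd1 (3.4 against 2.6 CPM). The gamma delta T cell receptor gene Trdc, the most abundant of 4 gamma delta and NKT cell markers, increased by 1.49 in total RNA and 1.32 in RPF on the log2 scale, from 7.56, 7.03 and 6.23 to 20.0, 18.8 and 21.0 CPM in total RNA. The other markers of that list did not pass the filter. In total RNA Zbtb16 (1, 3 and 0 counts against 2, 2 and 0) and Il23r (2, 2 and 3 against 6, 2 and 1) overlapped. Tcrg-C1 (4, 6 and 2 against 11, 11 and 17) did not. Of the regulatory T cell markers Ikzf2 increased by 1.12 in total RNA and 1.34 in RPF (adjusted p = 0.0499), whereas Foxp3, at 4.43 to 6.48 CPM in RPF, had a log2 fold change of -0.19 (adjusted p = 0.56).

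The 6 myeloid markers, led by Itgax, summed to 0.05, 0.32 and 0.10 CPM in control and 1.06, 0.53 and 0.40 CPM in Rnmt cKO total RNA, which did not overlap, and to 0, 0 and 1.22 against 0.96, 1.48 and 0.49 CPM in RPF, which did. The 4 mast cell and basophil markers, which bear on Il4, Il13 and Il3, summed to 0.05, 0.26 and 0 CPM against 0.33, 0.48 and 0.09 CPM in total RNA and to 0, 0 and 0 against 1.20, 0.79 and 0 CPM in RPF. Cpa3 led them, Ms4a2 was at 0 in all RPF libraries, and these sums were of the size of the Il4 level, 0.40, 0.59 and 0.13 CPM in Rnmt cKO total RNA. No gene of either list passed the filter. The part of any of these cells in the cytokine levels was not tested.

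Outside the 10 genes, 30 other cytokine genes were followed from a fixed list, of which 6 passed the filter in total RNA and 7 in RPF. In total RNA 4 increased and none decreased, against 26.3% and 28.0% of all tested genes, and in RPF 2 increased and 1 decreased, against 14.1% and 15.7%. Lif, for leukaemia inhibitory factor, had 5.25, 5.29 and 8.27 CPM in control and 26.5, 39.6 and 24.0 CPM in Rnmt cKO total RNA (log2 fold change 2.22, standard error 0.24, adjusted p = 0.00019). It increased in RPF by 2.26 (standard error 0.28). Osm, for oncostatin M of the same family, increased by 0.78 in total RNA and 0.76 in RPF.

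Tgfb1 and Il16 passed the threshold for TE, but their difference from the effector cytokines was not tested. Tgfb1, for the regulatory cytokine TGF beta 1, increased by 0.80 in total RNA and had a log2 fold change of -0.03 in RPF (adjusted p = 0.75), and its TE decreased by 0.83 (adjusted p = 0.024). Il16, a chemoattractant of CD4 cells, increased by 0.30 in total RNA (adjusted p = 0.021) and decreased by 0.64 in RPF, and its TE decreased by 0.94 (adjusted p = 0.00032). These were the 2 of 6 other cytokines whose TE changed, where 6.57% of all tested genes decreased in TE. Ltb, the third gene of the Tnf and Lta locus, did not pass the threshold in total RNA (-0.10, adjusted p = 0.44).

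Receptor chains through which the 10 cytokines act numbered 17, of which 12 were tested in total RNA and 13 in RPF. In total RNA 5 of the 11 besides Il3ra increased and 2 decreased, where 26.3% and 28.0% of all tested genes did. In RPF 4 of 13 increased and 2 decreased, where 14.1% and 15.7% did. The increases were led by Il21r, the receptor of interleukin 21, from 47.9, 47.2 and 46.3 to 128, 166 and 131 CPM in total RNA (log2 fold change 1.55, standard error 0.09). Il10ra increased by 1.13 and Il2ra, the high-affinity chain for interleukin 2 (CD25), by 0.81 in total RNA and by 1.16 and 0.78 in RPF.

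Ifngr1, the ligand-binding chain for interferon gamma, decreased by 0.75 in total RNA and 0.55 in RPF, and Tnfrsf1a, TNF receptor 1, by 0.55 and 0.44. Il3ra, for the chain specific to interleukin 3, had 1.63, 1.64 and 1.36 CPM in control and 0.66, 0.85 and 0.62 CPM in Rnmt cKO total RNA. It passed the filter there through the control libraries alone, so its fitted log2 fold change of -1.15 is a description, and in RPF it had -1.17 (adjusted p = 0.067). The median log2 fold change of the tested receptor chains was 0.06 in total RNA without Il3ra and 0.20 in RPF, and no chain of 12 passed the threshold for TE, where 3.24% of all genes increased and 6.57% decreased, with 2 at an unadjusted p under 0.05, where 24.6% of all genes lay.

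Transcription factors known to act on cytokine genes formed a list of 41, of which 37 were tested in total RNA (17 increased, 5 decreased, median log2 fold change 0.21) and 38 in RPF (14 increased, 5 decreased, median 0.27). Of all genes tested, 26.3% increased and 28.0% decreased in total RNA, and 14.1% and 15.7% did so in RPF. Eomes, a T-box factor of interferon gamma producing cells, rose most, from 2.41, 3.01 and 3.14 CPM to 19.7, 36.8 and 21.0 CPM in total RNA (log2 fold change 3.13, standard error 0.26) and by 2.98 in RPF. Jun, an AP-1 subunit, increased by 2.42 and 2.57 and Bhlhe40, which promotes cytokine production by helper T cells, by 2.39 and 2.22 in total RNA and RPF. Rnmt cKO replicate 2 was the highest library for Eomes and Jun in both kinds.

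The decreases in total RNA included Maf (-0.82, standard error 0.27) and Ikzf1, for Ikaros (-0.77, standard error 0.06). In RPF Ikzf1 decreased by 0.68, Nfatc2 by 0.58 and Nfatc1 by 0.48. The total RNA log2 fold changes of these NFAT factors were 0.04 (adjusted p = 0.91) for Nfatc2 and 0.13 (adjusted p = 0.52) for Nfatc1. Nfatc3, the other NFAT factor of the list, increased by 0.44 in total RNA (adjusted p = 0.0048) and had 0.05 in RPF (adjusted p = 0.56). TE decreased for Egr1 (-1.36, adjusted p = 0.0066) and Nfkb2 (-0.77, adjusted p = 0.0028) among 37 factors and increased for none, a share near the 6.57% of all tested genes that decreased.

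Proteins that bind AU-rich or stem-loop elements in cytokine mRNAs, and mostly speed their decay, were a list of 14, all of them tested. In total RNA 6 of the 13 besides Zc3h12c increased and 3 decreased, where 26.3% and 28.0% of all tested genes did. In RPF none of the 14 increased and 6 decreased (14.1% and 15.7% of all), and in TE none increased and 3 decreased (3.24% and 6.57% of all). In total RNA Zc3h12a, for the RNase regnase-1, increased by 0.66 and Elavl1, for the stabilizing protein HuR, by 0.65. Zc3h12c had 0.37, 0.53 and 0.31 CPM in control and 3.12, 4.36 and 1.46 CPM in Rnmt cKO total RNA, through which alone it passed the filter there, so its fitted log2 fold change of 2.81 is a description. Tia1 decreased by 0.92 in total RNA and 0.89 in RPF and Zc3h12d by 0.84 and 0.77, and Zfp36l2 decreased by 0.23 in total RNA.

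Zfp36l1, whose product promotes the decay of AU-rich mRNAs, increased by 0.45 in total RNA (adjusted p = 0.016) and decreased by 0.68 in RPF, and Khsrp increased by 0.54 in total RNA and decreased by 0.19 in RPF. The TE of Zfp36l1 decreased by 1.13 (standard error 0.17, adjusted p = 0.00091), that of Khsrp by 0.73 and that of Zfp36l2 by 0.37. In control RPF Zfp36l1 stood at 401, 406 and 467 CPM and in Rnmt cKO at 288, 238 and 279 CPM. The median log2 change in TE of the 14 genes was -0.39, and over all tested genes it was 0.04.

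**Figure D3:**
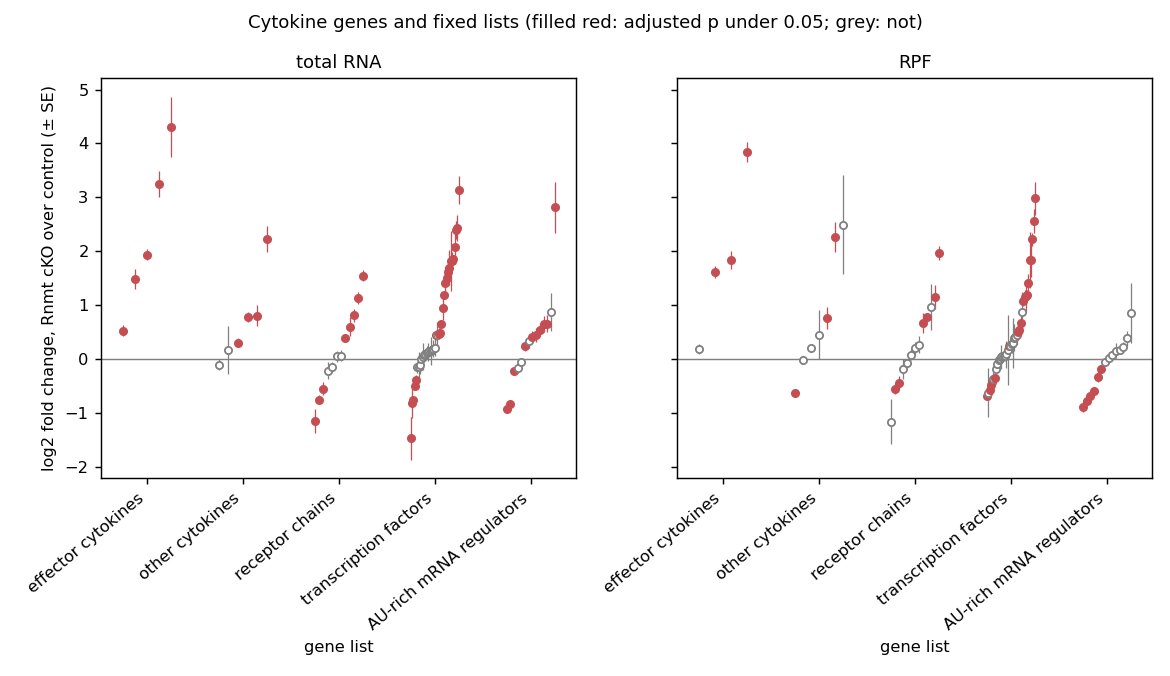
Log2 fold change of Rnmt cKO over control with standard error for each tested gene of the effector cytokines and of 4 fixed lists, in total RNA (left) and RPF (right), sorted within a list; red filled points have an adjusted p under 0.05. The effector cytokines lie above 0 throughout, and the AU-rich mRNA regulators past the threshold in RPF all lie below 0. In total RNA Csf2, Il3ra and Zc3h12c passed the filter through a single genotype, so their values there are descriptions.

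Genes within 100 kb of a cytokine gene are described next, and no link between their changes and those of the cytokine genes was tested. Of all tested genes, 26.3% increased and 28.0% decreased in total RNA. In RPF 14.1% and 15.7% did so, and in TE 3.24% and 6.57%. Around Tnf and Lta, the nearest gene Ltb lies 3061 bases from Tnf and did not pass the threshold in either kind, whereas Nfkbil1, 14824 bases from Lta, increased by 0.54 in total RNA and 0.88 in RPF. H2-D1, an MHC class I gene, increased by 0.38 and 0.60 and Ddx39b by 0.26 in total RNA. Atp6v1g2 had a mean of 1.35 ± 0.15 CPM in control and 0.75 ± 0.29 CPM in Rnmt cKO total RNA. Its mean exceeded the 1 CPM of the filter in control only, so its fitted log2 fold change of -0.94 is a description. The remaining Tnf neighbours, Abhd16a, Csnk2b, Gpank1, D17H6S53E, Bag6 and Prrc2a, had total RNA log2 fold changes of -0.21 to 0.56 and none passed the threshold in any comparison.

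Near Il4 and Il13, Rad50, whose gene carries control elements of the type 2 locus, had a log2 fold change of 0.05 (adjusted p = 0.47) in total RNA and -0.02 in RPF. Kif3a, 1015 bases from Il4, decreased by 0.59 in total RNA, and Sept8 had 0.35 (adjusted p = 0.072). Close to Il2 and Il21, Bbs12 decreased by 0.52 and Cetn4 increased by 1.31 in total RNA, and 4932438A13Rik decreased by 0.43 in RPF. Mapkapk2, 28726 bases from Il10 and encoding a kinase of the p38 pathway, increased by 0.56 (standard error 0.06) in total RNA and 0.41 in RPF. Among all these neighbours outside the cytokine genes, total RNA log2 fold changes ran from -0.94 to 1.31. The lower end was Atp6v1g2, whose value is a description, and the next lowest was Kif3a at -0.59.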

How the data were processed

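The authors took read 2 of each fragment, trimmed adapters with cutadapt, removed ribosomal and transfer RNA reads with Bowtie, aligned the rest to mm10 with STAR 2.5.2b and deposited raw counts per gene for each of 12 libraries. Sense-strand counts were used, since these, divided by 1 factor per library, gave the deposited normalized signal values of all 10126 genes in the authors' table within a relative tolerance of 0.0001. That signal was used for nothing else, and the authors' columns of their own comparisons (log2 fold changes with raw and adjusted p-values of each kind and of TE) were not used. No column of per-library values lacked a library. Gene positions, lengths and biotypes came from GENCODE vM21 on GRCm38, whereas the authors counted on vM12.

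Genes above 1 CPM in at least 3 libraries of a kind were tested with edgeR 4.0.16 in R 4.3.3 (quasi-likelihood F test, TMM scaling), as Rnmt cKO against control within each kind (6 libraries) and, for TE, as the interaction of genotype and kind over 12 libraries (RiboDiff, used by the authors, could not be run). P-values were adjusted over all genes tested by Benjamini-Hochberg with a threshold of 0.05. "Increased" and "decreased" are used for calls past it. The labels do not say that the 3 libraries of a group came from separate animals, so p-values measure the spread between these libraries. Those of the fit without a filter on low counts are an exception and are not read that way. No libraries of a group agreed within sampling noise. Depth, given with the samples, sets the precision, and reads carry no molecular identifiers, so intervals from counts cover counting error only. Intervals of the ratios of low counts used the exact Clopper-Pearson method at 95%.

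The cytokine genes and all lists were chosen with earlier results of these data known. Named were the 10 cytokine genes, Rnmt, from every other list and each comparison up to 3 of the largest rises and falls past the threshold, the most abundant gene of every marker list, and protein-coding genes within 100 kb that passed the filter. A gene that this rule names is not reported here. Il5, Il9, Ebi3, Ncr1, Klrb1c, Klre1, Klra4, Klra8, Zbtb16, Il23r, Tcrg-C1, Nfatc3 and the total RNA values of Zfp36l1 and Khsrp were added after their values were seen.

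Total RNA and RPF libraries of the same number deviated together from their group means (r = 0.11 to 0.38 in all 6 pairs, and at most 0.04 in every pair of different numbers), which takes the number as 1 culture for TE, and the closing section gives the fit with that block. Control and Rnmt cKO libraries share only a number. The alternatives tried were DESeq2 1.42.0, plain library sizes in place of TMM, the edgeR exact test, other filters on low counts, both strands, protein-coding genes alone, the replicate block, each library left out in turn, other lengths for levels and a prior count of 0.5 in place of 2 for log2 CPM.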

Additional observations from a re-analysis of the deposited data

How the results depend on the processing

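Leaving Csf2 aside, of 164 alternative fits of the 12 fold changes of tested cytokine genes, 164 kept their direction and their side of the threshold. Leaving out 1 library at a time, the log2 fold change of Ifng ranged from 3.02 to 3.59 for total RNA and from 3.76 to 3.99 for RPF. For TE, where the total RNA and RPF libraries of 1 number were left out together, that of Tnf ranged from -0.46 to -0.29, of Lta from -0.40 to -0.18 (without control replicate 2), of Il2 from 0.19 (without control replicate 1) to 0.44 and of Ifng from 0.19 (without control replicate 3) to 0.84. Csf2 was not tested when any Rnmt cKO library was left out or when at least 10 counts were required in every library. Without a filter 9 cytokine genes increased in total RNA and 6 in RPF, more genes having entered the test. With protein-coding genes alone, 5 cytokine genes were tested in RPF and 4 increased, against 4 tested and 3 increased in the main fit. The gene so added was 1 of the 6 low genes, whose control libraries all lay below 1 CPM. With 1 such pair left out at a time, the number of genes past the TE threshold ran from 540 (without control replicate 1) to 1179, against 1047 with all libraries; it was 554 without Rnmt cKO replicate 1 and 565 without control replicate 2, and 0 cytokine genes passed in each. With a replicate block the genes past the threshold numbered 5206 (total RNA), 3232 (RPF) and 1203 (TE), and no call on a tested cytokine gene changed; same-numbered control and Rnmt cKO libraries correlated at r of -0.52 to 0.15. The difference of mean log2 CPM of low genes depended on the prior count, being 2.47 for Il3 in total RNA with 2 and 3.61 with 0.5. Ranks of Il3, Il4, Il13, Il21 and Csf2 among control levels moved with the length used, whereas those of the other 5 genes did not. Counts under about 10 per library limit all statements on the 6 low genes.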

Other observations

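Il5 and Il9, 2 further type 2 cytokine genes picked after their values were seen, had no count in any control library. Il5 had 2, 35 and 3 counts in the Rnmt cKO total RNA libraries and 5, 16 and 1 in RPF, which is at least 13.5-fold higher in total RNA and at least 8.31-fold higher in RPF against a floor of 3 counts over the control group. Without Rnmt cKO replicate 2, an alternative chosen after the data were seen, these bounds were 2.52-fold on 5 counts and 4.11-fold on 6 counts. Il9 had 1, 7 and 1 counts in Rnmt cKO total RNA and 3, 16 and 0 in RPF (at least 3.03-fold and 7.18-fold higher), and without that library its 2 and 3 counts did not exceed the floor. For both, as for Il4 and Il13, Rnmt cKO replicate 2 held most of the counts. Ebi3, a subunit shared by interleukins 27 and 35, had 22, 51 and 5 counts in Rnmt cKO total RNA and 75, 143 and 10 in RPF, against 2, 1 and 19 counts in control total RNA and 6, 0 and 33 in control RPF. Control replicate 3 lay above Rnmt cKO replicate 3 in both kinds (0.99 against 0.22 CPM in total RNA and 4.02 against 2.42 CPM in RPF), so the genotypes overlapped, and its RPF log2 fold change of 2.49 had an adjusted p of 0.074.

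Reads on the strand opposite to Il21, where the antisense gene Gm12534 is annotated, numbered 2, 2 and 1 in control and 8, 23 and 5 in Rnmt cKO total RNA, so that Rnmt cKO replicate 2 was the highest on both strands. Csf2, which an antisense gene also overlaps, had 155 counts on its own strand over the 6 total RNA libraries and 132 when both strands were counted.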
